A study of Rattus norvegicus with 9 samples.

Results

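The monocarboxylate transporters are membrane proteins of the Slc16a family, and basigin (Bsg) is the glycoprotein that escorts several of them to the cell surface. A list of 9 genes was followed in rat kidney: Slc16a1, Slc16a3, Slc16a4, Slc16a6, Slc16a7, Slc16a9, Slc16a10, Slc16a12 and Bsg. A gene probe was taken as a member when the gene name in the array files equalled one of these names. This found 8 of the 9 genes, each with 1 probe, among 26115 gene names and 30367 gene probes, and these 8 probes filled 23 of the 58717 gene spots of an array. Slc16a9 had no probe under its own name and is taken up after the others.

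Monocarboxylate transporters carry lactate, pyruvate and ketone bodies across the plasma membrane together with a proton, in the direction that the gradients set. In the kidney, the proximal tubule takes up filtered lactate through sodium-coupled carriers of another family (Slc5a8 and Slc5a12) on its luminal side, and members of the Slc16a family release it on the blood side or bring it in as a fuel. Not every member carries lactate, since Slc16a10 transports aromatic amino acids and Slc16a12 creatine.

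The arrays compared kidneys of Fisher F344 rats that had all undergone 20 min. of warm ischaemia, as in donation after circulatory death. The 5 non-perfused (NP) kidneys, by the treatment field and the methods, received nothing more. The 4 MSC kidneys were then perfused for 4 hrs at 4°C with Belzer solution (BS) to which 3000000 mesenchymal stromal cells (MSC) had been added, grown from the bone marrow of Sprague Dawley rats that carry EGFP as a transgene. The submitters' labels do not speak with one voice on the NP arrays, whose titles name a perfusion with BS while the treatment field gives them as not perfused, as the study's methods do. If the latter hold, MSC minus NP contains perfusion and MSC together, which cannot be told apart, and if the titles hold, it sets MSC in BS against BS alone. Which of them holds was not settled here. The labels place the clamp on the abdominal aorta and the methods on the renal artery. A further MSC array was discarded by the study and not analysed here. Nothing in the labels ties an array to a named animal, so that p-values measure the spread between these arrays.

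Each array gives the brightness of a Cy3-labelled cRNA at every spot, and values are given below on the log2 scale after normalization between arrays, where 1 unit is a doubling. A level is comparable between arrays for 1 probe but not between probes. The arrays lay on 2 slides, with NP replicates 1 to 3 and MSC replicates 1 and 2 on slide 1, and NP replicates 4 and 5 and MSC replicates 3 and 4 on slide 2. Between 65.6% and 74.3% of the gene spots were well above background, and 0 were saturated. All 8 members were well above background on each of the 9 arrays and passed the filter on dim probes, as did 13769 genes in all. The kidney origin was plain in the markers, since 6 of 6 proximal tubule genes and 4 of 4 genes each of the thick ascending limb, the principal cell and the podocyte were well above background on all arrays. Of the distal convoluted and connecting tubule genes 3 of 4 were, while Pvalb was well above background on 0 arrays.

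The probes are oligonucleotides of 60 bases, placed by the array files on the rat build rn4. Those of the 4 genes with the largest differences per standard error are shown, because every value below for these genes is the light from this 1 stretch of its transcript. The probe of Bsg lies at chr7:11508883-11508942 on the minus strand, and that of Slc16a7 at chr7:65210821-65210880 on the minus strand. The probe of Slc16a1 lies at chr2:199879777-199879836 and that of Slc16a3 at chr10:110163119-110163178, both on the plus strand. For Slc16a1 and Slc16a3 the first 30 bases are given. The sequences are written 5′ to 3′ as in the array files, with no part set in capitals.
Bsg: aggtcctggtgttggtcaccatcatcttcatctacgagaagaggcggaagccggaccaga
Slc16a7: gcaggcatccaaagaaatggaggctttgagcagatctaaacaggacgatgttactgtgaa
Slc16a1: cagagacactgtgtggttagaagtaattgg
Slc16a3: tttctgggcagtggtctgttcaccctgagt
The full probes were 55% G or C for Bsg, 45% for Slc16a7, 35% for Slc16a1 and 45% for Slc16a3. Bsg had no stop codon in any of the 3 reading frames, and Slc16a7 had 1 open frame. Slc16a3 had a stop codon in each frame. Among the 36 pairs that the member probes and the probe taken up below for Slc16a9 form, the longest run of identical bases on either strand was 11, so none of these probes is a near copy of another.

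No member met the study's call of a fold change over 1.5 and an FDR under 0.05 in limma's moderated test. The same held for every gene and every probe tested, with 0 of 13769 genes (0.00%) and 0 of 15635 probes (0.00%) called, and the smallest FDR over all genes was 0.0997. The study itself reported 2 genes called at this threshold on these arrays, Tmem52b and Calb1, both higher in MSC. The fit used here did not reproduce those calls. At an unadjusted limma p under 0.05, without adjustment for the number of genes, 2 of the 8 members were higher on the MSC arrays, Slc16a7 and Bsg, against 6.59% of all genes. In the other direction 1 member was lower, Slc16a3, against 5.09% of all genes. The log2 difference, MSC minus NP, was above 0 for 5 members and below 0 for 3, where 48.6% of all genes were above 0, with a median of 0.16 over the members and -0.00595 over all genes. For 0 members did every MSC array lie above every NP array, which 3.18% of all genes did, and for 0 members did every MSC array lie below, which 2.14% of all genes did. Counts this small move with the scaling and with single arrays. Both counts were 0 with scaling to the 75th percentile or to the median. With 1 array left out, Bsg was no longer under 0.05 without NP replicates 2 and 3 and MSC replicates 1, 2 and 3 in turn (unadjusted limma p of 0.0635 to 0.0917), and Slc16a7 was not without MSC replicates 1 and 4 (0.06 and 0.0512). Slc16a1 was under it without NP replicate 2 (unadjusted limma p of 0.0299) and without MSC replicate 3 (0.00435). The count of 2 higher members was thus 0 without MSC replicate 1, and 1 when MSC replicate 2, MSC replicate 4 or NP replicate 3 was left out. Slc16a3 was no longer under 0.05 without any one of NP replicates 1, 2 and 5 and MSC replicates 2, 3 and 4, and the count of 1 lower member was then 0, except without NP replicate 1, where Slc16a12 was under it (unadjusted limma p of 0.0184) in place of Slc16a3 (0.0982).

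**Figure D1:**
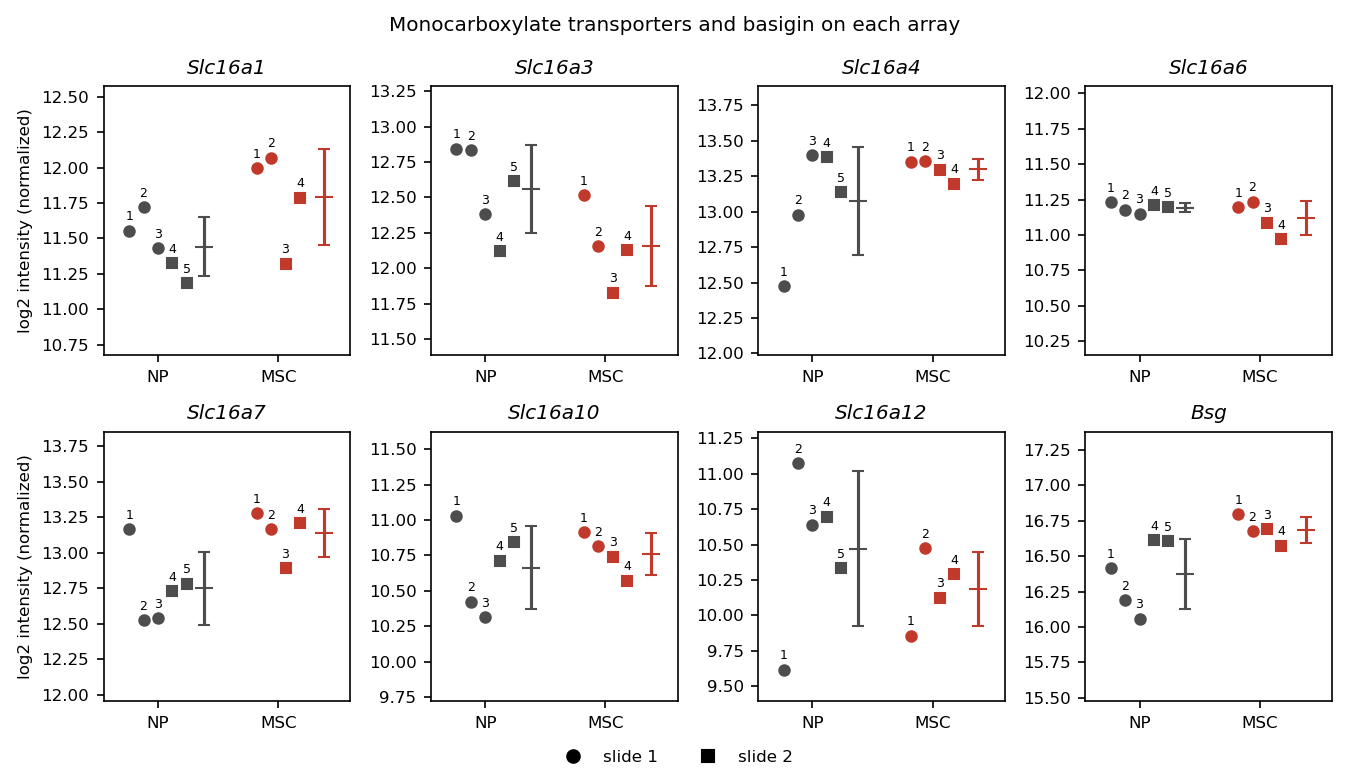
Normalized log2 intensity of the 8 members on each array (y axis, the same span in every panel), with NP arrays in grey, MSC arrays in red, the replicate number above each point, circles for slide 1 and squares for slide 2. The bar beside each group is its mean ± SD. In no panel are the groups fully apart, and NP replicate 1 holds the lowest Slc16a4 (12.48) and Slc16a12 (9.62).

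Slc16a1 encodes MCT1, the widely expressed carrier of lactate, pyruvate and ketone bodies. The study picked it from these same arrays for follow-up by RT-PCR, so its direction here is not independent evidence. That RT-PCR found it higher than with BS alone in kidneys perfused with vesicles released by MSC, but not in those perfused with MSC. The RT-PCR groups did not include NP kidneys. The log2 intensity was 11.55, 11.72, 11.43, 11.32 and 11.18 on NP replicates 1 to 5 and 12.00, 12.07, 11.32 and 11.79 on MSC replicates 1 to 4. MSC replicates 1, 2 and 4 lay above all NP arrays, and MSC replicate 3 lay among the lower NP arrays. The mean was 11.79 ± 0.34 (SD, n = 4) for MSC and 11.44 ± 0.21 (SD, n = 5) for NP. Between the means lay a log2 difference of 0.35 (SE 0.16, 95% CI -0.015 to 0.72), or 1.28-fold, and its FDR in limma was 0.439. A two-sided exact permutation test over all arrangements of the arrays gave p = 0.103.

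The slides stood apart for Slc16a1. Slide 1 was the brighter in both groups, with means of 11.57 on slide 1 and 11.25 on slide 2 for NP and of 12.03 and 11.55 for MSC. Within slide 1 the log2 difference between the groups was 0.46 and within slide 2 it was 0.30. With slide as a block the log2 difference was 0.39 (SE 0.11), and the FDR in limma was 0.286. The exact permutation test with arrangements kept within slides, of which there are 60, gave p = 0.0333, where the smallest p possible is 0.0167. With the slide block 3 of 8 members were higher at an unadjusted limma p under 0.05, now with Slc16a1, against 7.00% of all genes, and 1 was lower against 5.72%.

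The probe of Slc16a1 is printed at 2 spots of each array, and these did not read alike. The spots differed by 0.35 on the log2 scale in their mean over the arrays, as much as the groups did. NP replicate 2 had the widest gap, with a SD between its spots of 0.57, and MSC replicate 4 the narrowest, with 0.0159. The dimmer spot gave a log2 difference between the groups of 0.44 and the brighter one of 0.26, both above 0.

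**Figure D2:**
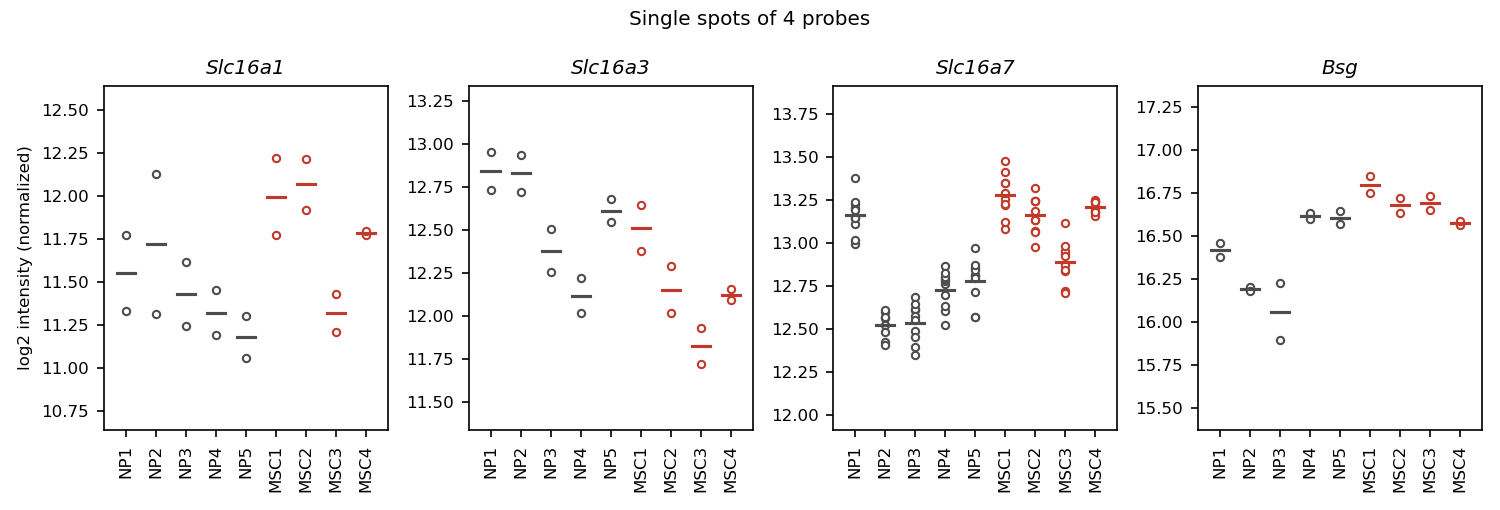
Every spot of the probes of Slc16a1, Slc16a3, Slc16a7 and Bsg (open circles, normalized log2 intensity on the y axis) on each array (x axis), with NP in grey, MSC in red and the line at the mean of the spots. The 2 spots of Slc16a1 lie far apart on NP replicate 2, while the 10 spots of Slc16a7 move together from array to array.

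Slc16a7 encodes MCT2, a carrier with high affinity for pyruvate and lactate. Its values were 13.17, 12.52, 12.54, 12.73 and 12.78 on NP replicates 1 to 5 and 13.28, 13.17, 12.89 and 13.21 on MSC replicates 1 to 4. All MSC arrays lay above NP replicates 2 to 5, and NP replicate 1 lay level with them. The mean was 13.14 ± 0.17 (SD, n = 4) for MSC and 12.75 ± 0.26 (SD, n = 5) for NP. The log2 difference of 0.39 (SE 0.14, 95% CI 0.07 to 0.70), or 1.31-fold, had an FDR of 0.366 in limma. It was 0.48 within slide 1 and 0.30 within slide 2. The exact permutation test gave p = 0.0476 over all arrangements and p = 0.0833 within slides. Without NP replicate 1 the log2 difference was 0.49, with an FDR of 0.142 in limma.

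Slc16a7 was the member measured most often on each array, with 10 spots. The median SD between its spots of an array was 0.11, and each of the 10 spots taken alone gave a log2 difference between 0.31 and 0.44. The spread of the NP group therefore lay between arrays rather than between spots.

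Slc16a3 encodes MCT4, the carrier that glycolytic cells use to release lactate. Its values ran the other way, at 12.84, 12.83, 12.38, 12.12 and 12.61 on NP replicates 1 to 5 and 12.52, 12.16, 11.83 and 12.13 on MSC replicates 1 to 4. MSC replicate 3 was the lowest of all, and the other MSC arrays lay within the NP range. The mean was 12.16 ± 0.28 (SD, n = 4) for MSC and 12.56 ± 0.31 (SD, n = 5) for NP. MSC minus NP was -0.40 on the log2 scale (SE 0.18, 95% CI -0.80 to -0.0052), the NP level being 1.32-fold the MSC level, with an FDR of 0.423 in limma and p = 0.0952 in the exact permutation test. It was -0.35 within slide 1 and -0.39 within slide 2, and its spots gave -0.40 each. With array weights the log2 difference was -0.24, with an unadjusted limma p of 0.184. Within slides the exact permutation p was 0.1.

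Basigin (also named CD147 or EMMPRIN) is needed for MCT1 and MCT4 to leave the endoplasmic reticulum and stay in the plasma membrane. Its log2 intensity was 16.42, 16.19, 16.06, 16.61 and 16.60 on NP replicates 1 to 5 and 16.80, 16.68, 16.69 and 16.57 on MSC replicates 1 to 4. MSC replicates 1 to 3 lay above all NP arrays, and MSC replicate 4 lay just under NP replicates 4 and 5. The mean was 16.68 ± 0.09 (SD, n = 4) for MSC and 16.38 ± 0.25 (SD, n = 5) for NP. On the log2 scale the difference was 0.31 (SE 0.13, 95% CI 0.03 to 0.59), or 1.24-fold, with an FDR of 0.402 in limma, and the exact permutation test gave p = 0.0635, or p = 0.0833 within slides.

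The basigin values differed by slide in size. MSC minus NP was 0.52 within slide 1, where the NP mean was 16.22 and the MSC mean 16.74, and 0.02 within slide 2, where the means were 16.61 and 16.63. The difference between the slides in this effect was -0.49 on the log2 scale (SE 0.19). Its limma p was 0.0314 before adjustment, a value under 0.05 that 1.92% of all genes reached for the same term, and its FDR was 1. With quantile normalization it was -0.41, with an unadjusted limma p of 0.0712 and an FDR of 1. Each slide held only 2 or 3 arrays of a group. Of the 8 members only basigin had an unadjusted p under 0.05 for this term in the cyclic loess values. With slide as a block its log2 difference was 0.29, with an FDR of 0.371 in limma.

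**Figure D3:**
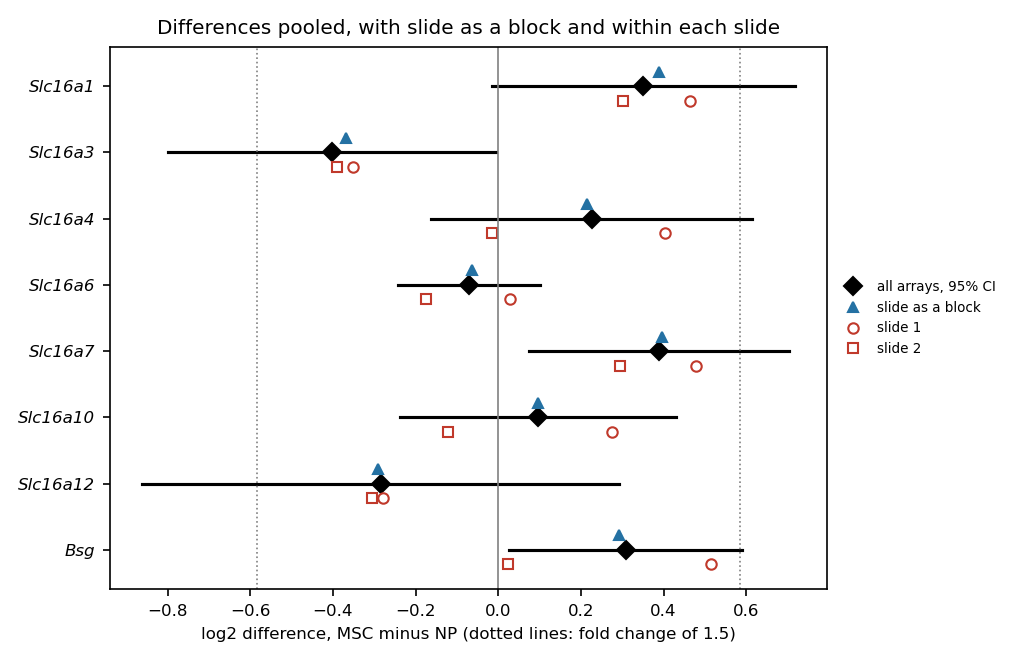
Log2 difference between MSC and NP arrays (x axis) for each member, with the pooled value and its 95% CI in black, the value with slide as a block as a blue triangle, and the values within slide 1 (open circle) and slide 2 (open square) in red. No pooled value passes a fold change of 1.5 (dotted lines), and for Bsg the slides lie at 0.52 and 0.02.

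For the other members, as for Slc16a1, the interval of the difference held 0. Slc16a4 encodes MCT5, whose substrate is not settled. It read 12.48, 12.98, 13.40, 13.38 and 13.14 on NP replicates 1 to 5 and 13.35, 13.36, 13.30 and 13.20 on MSC replicates 1 to 4. The NP arrays were scattered and the MSC arrays tight, with a SD of 0.38 (n = 5) against 0.07 (n = 4). Their means differed by 0.23 on the log2 scale (SE 0.17, 95% CI -0.16 to 0.61), with an FDR of 0.633 in limma, and by 0.08 without NP replicate 1. The difference was 0.40 within slide 1 and -0.0145 within slide 2, and thus without a common direction.

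Slc16a6 encodes MCT7, a ketone body carrier of the liver. It lay between 11.15 and 11.23 on the NP arrays and between 10.97 and 11.23 on the MSC arrays. This was the member with the smallest SD among the NP arrays, 0.03 (n = 5). MSC minus NP was -0.07 on the log2 scale (SE 0.08, 95% CI -0.24 to 0.10), with an FDR of 0.742 in limma, and -0.02 without MSC replicate 4. It was 0.03 within slide 1 and -0.17 within slide 2.

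Slc16a10, the aromatic amino acid carrier TAT1, ranged from 10.31 to 11.03 on the NP arrays and from 10.57 to 10.92 on the MSC arrays. The log2 difference was 0.10 (SE 0.15, 95% CI -0.24 to 0.43), with an FDR of 0.832 in limma, and the slides again had opposite signs, 0.28 and -0.12. It was 0.0083 without NP replicate 3 and 0.19 without NP replicate 1.

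Slc16a12, the creatine carrier MCT12, was measured by a single spot. It read 9.62, 11.07, 10.64, 10.70 and 10.33 on NP replicates 1 to 5 and 9.86, 10.47, 10.13 and 10.29 on MSC replicates 1 to 4. NP replicate 1 was far below the other NP arrays, and NP replicate 2 was the highest of all. MSC minus NP was -0.28 on the log2 scale (SE 0.26, 95% CI -0.86 to 0.29), with an FDR of 0.684 in limma, and it was -0.28 within slide 1 and -0.31 within slide 2. Without NP replicate 1 it was -0.50, with an FDR of 0.225 in limma, and without NP replicate 2 it was -0.14 and without MSC replicate 1 -0.18, so the size rests on these arrays.

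Slc16a9, which encodes MCT9, a carrier linked to carnitine, was not found by name. A current RefSeq gene table (assembly GRCr8) gives this symbol to the gene that the array files call LOC687808, which has 1 probe with 1 spot. Its log2 intensity lay between 8.50 and 8.90 on the NP arrays and between 8.77 and 8.85 on the MSC arrays. These values sit at the limit set for dim probes, which was between 8.75 and 8.87 depending on the array, although the scanner software marked the spot as well above background on all 9 arrays. The log2 difference was 0.03 (SE 0.09, 95% CI -0.18 to 0.24), with an FDR of 0.933 in limma.

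Each array measured a piece of whole kidney, where fewer cells of a type and less RNA per cell cannot be told apart. Markers of blood, fat and tubule segments were therefore set beside the members. The summed linear intensity of the red cell markers was 187000 to 256000 on the NP arrays, and 26800, 246000, 95500 and 221000 on MSC replicates 1 to 4. Of the 5 listed, 4 were on the array, with Hbb carrying nearly all of the sum and Epb42 at background throughout. Of the 2 tested, on the probes summed here, 1 was lower in MSC at an unadjusted limma p under 0.05. Slc16a1, a carrier that red cells also use, was at its brightest on MSC replicates 1 and 2, the MSC arrays with the lowest and the highest red cell level. The part of red cells in the member values was not tested.

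The summed intensity of the perirenal fat markers was 4260 to 9140 on the NP arrays and 4820, 9380, 38700 and 22400 on MSC replicates 1 to 4. Plin1 and Lep were at or near background, and 2 of 3 genes tested were higher in MSC at an unadjusted limma p under 0.05. MSC replicate 3, the array with the most fat marker signal, was the MSC array with the lowest Slc16a1, Slc16a3 and Slc16a7. Without it the log2 difference was 0.51 for Slc16a1, -0.29 for Slc16a3 and 0.47 for Slc16a7. Beyond these values the part of the fat markers was not tested.

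For the mesenchymal stromal cell markers the sum was 6290 to 10500 on the NP arrays and 9450 to 15900 on the MSC arrays. Of the 5 listed, Col1a1, Nt5e and Eng were well above background on all arrays, while Thy1 and Itga5 were dim. Col1a1 carried most of the difference in the sum, at 11.11 to 12.61 on the NP arrays and 12.22 to 13.31 on the MSC arrays on the log2 scale, and Nt5e was at 11.12 to 11.33 and 11.27 to 11.44. Of the 3 genes tested 1 was higher at an unadjusted limma p under 0.05. Their part in the member values was not tested.

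The tubule segments did not hold one level either. The sum over the distal convoluted and connecting tubule markers was 42300, 23800, 27700, 32600 and 33400 on NP replicates 1 to 5 and 50200, 45500, 41800 and 50400 on MSC replicates 1 to 4. On the probes summed, 2 of 3 genes were higher in MSC at an unadjusted limma p under 0.05. This list holds Calb1, a gene that the study chose on these arrays. NP replicate 1 had the highest sum of the NP arrays, and it also had the highest Slc16a7 and Slc16a10 of that group. For intercalated cell markers the sum was 17100 to 27100 on the NP arrays, again highest on NP replicate 1. On the MSC arrays it was 23500 to 32700. Of the 4 genes 2 were higher in MSC at an unadjusted limma p under 0.05, against 6.59% of all genes. This list holds Atp6v0d2, which the study also chose on these arrays. NP replicate 1 had the lowest sum of all arrays for the proximal tubule, 940000 against 1080000 to 1210000 on the other NP arrays and 1120000 to 1260000 on the MSC arrays. The same array was lowest for the thick ascending limb, with 286000 against 392000 to 515000 on the other NP arrays and 371000 to 576000 on the MSC arrays, and 1 of 4 genes of this list was higher in MSC at an unadjusted limma p under 0.05 on the probes summed. On the probe of largest variance per gene that count was 2 of 4, and for the red cell list it was 2 of 2 lower. Podocyte markers summed to 22000 to 38800 on the NP arrays and 17300 to 31800 on the MSC arrays, lowest on MSC replicate 4. The part of segment make-up in the member values was not tested.

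**Figure D4:**
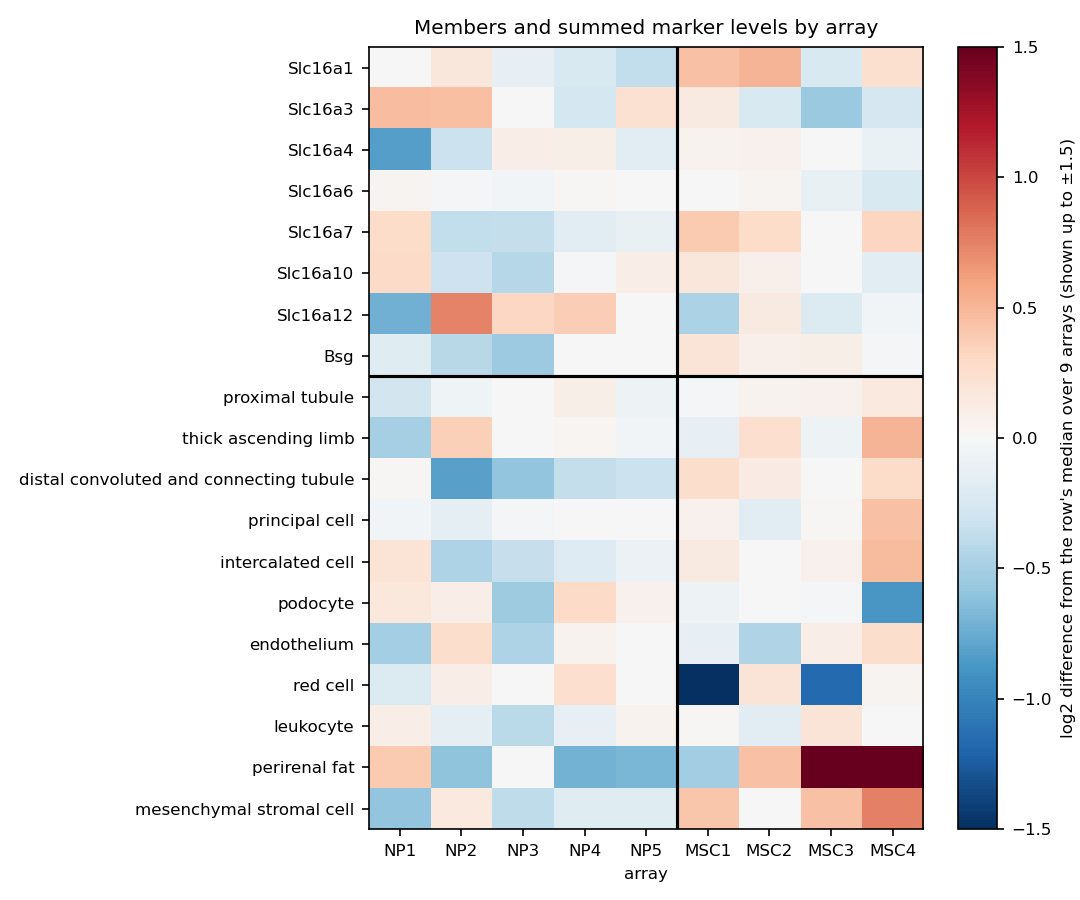
Log2 difference of each array (x axis) from the median over the 9 arrays of its row, in colour, shown up to 1.5 either way, for the 8 members (above the line) and for the summed level of 11 marker lists (below it). Red cell markers were low on MSC replicates 1 and 3, fat markers were high on MSC replicates 3 and 4, and NP replicate 1 departs from the other NP arrays in several member rows.

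Monocarboxylates are made and used by enzymes on both sides of these carriers. A list of 25 genes of lactate and pyruvate handling was compared in the same way, and 22 of them could be tested. It holds such enzymes, kinases that regulate them, other carriers and partner proteins of the carriers. None was called. At an unadjusted limma p under 0.05, 5 of 22 were higher on the MSC arrays and 0 lower, set against the 6.59% and 5.09% of all genes given above. The log2 difference was above 0 for 16 of 22, against 48.6% of all genes, with a median of 0.16 against -0.00595. In 4 of 22 every MSC array lay above every NP array, against 3.18% of all genes, and in 0 every one lay below, against 2.14%. Pdhb, which the study selected on these arrays, is among both the 5 and the 4. These counts are thus not independent of that choice. With scaling to the median the count of 5 was 0 and with scaling to the 75th percentile it was 3, while the share of all genes under this p in either direction went from 11.7% to 6.07% and 7.84%. The count of 5 was 3 without MSC replicate 4, and the count of 0 lower genes became 1 when MSC replicate 2, NP replicate 1 or NP replicate 2 was left out.

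Pyruvate enters the mitochondrion through a carrier of which Mpc1 is a subunit. Its log2 difference was 0.23 (SE 0.08), with an FDR of 0.347 in limma, and the MSC arrays at 17.09 to 17.31 lay above the NP arrays at 16.85 to 17.06. With scaling to the median it was 0.13. Mpc2, the partner subunit, differed by -0.02. Inside, the pyruvate dehydrogenase complex turns pyruvate into acetyl-CoA. Pdhb, a subunit of its first enzyme that the study also selected on these arrays, differed by 0.31 (SE 0.07), with an FDR of 0.334 in limma and no overlap between MSC arrays at 14.87 to 15.02 and NP arrays at 14.56 to 14.74. Dld, the dehydrogenase that the complex shares with other enzymes, differed by 0.40 (SE 0.14), with an FDR of 0.352 in limma, and by 0.56 within slide 1, 0.17 within slide 2 and 0.24 with array weights.

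Lactate and pyruvate are exchanged by lactate dehydrogenase. Ldhb, its heart-type subunit, differed by 0.20 (SE 0.09), with an FDR of 0.419 in limma, and its MSC arrays lay above its NP arrays. It was 0.13 with quantile normalization and also with array weights, 0.11 with scaling to the median and 0.10 on slide 2 alone. Ldhd, which oxidizes D-lactate in mitochondria, differed by 0.41 (SE 0.12), with an FDR of 0.334 in limma and 3 of 4 MSC arrays above all NP arrays. Its difference was 0.57 within slide 1 and 0.20 within slide 2. Ldha, the muscle-type subunit, differed by 0.24 (SE 0.15), with an FDR of 0.56 in limma, and by 0.11 without NP replicate 2.

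The luminal carriers and embigin (Emb) had the largest differences of the list over all 9 arrays, and these moved with single arrays. Slc5a12, the low-affinity sodium-coupled carrier, differed by 0.51 (SE 0.29), with an FDR of 0.507 in limma, and its other probe by 0.47 (SE 0.15), with an unadjusted limma p of 0.0101. The mean of both probes had an unadjusted limma p of 0.0411 and an FDR of 0.417. Without NP replicate 1 the difference fell to 0.24. Within slide 1 the value was 0.86 and within slide 2 it was 0.05. Slc5a8, the high-affinity one, differed by -0.48 (SE 0.26), with an FDR of 0.498 in limma, 3 of 4 MSC arrays lying below all NP arrays, by -0.32 without MSC replicate 3, by -0.72 without MSC replicate 2 and by -0.185 with array weights. Embigin, the relative of basigin that escorts MCT2, differed by 0.48 (SE 0.27), with an FDR of 0.516 in limma, and 0 of 4 MSC arrays lay above all NP arrays. Without NP replicate 1 it differed by 0.72, with an FDR of 0.145.

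Of the remaining Slc16a genes in the list 3 were tested, Slc16a11, Slc16a13 and Slc16a14, and 0 had an unadjusted limma p under 0.05. Their log2 differences lay between -0.15 and 0.04. Slc16a5 and Slc16a8 did not pass the filter on dim probes, and Pcx had no probe under that name.

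**Figure D5:**
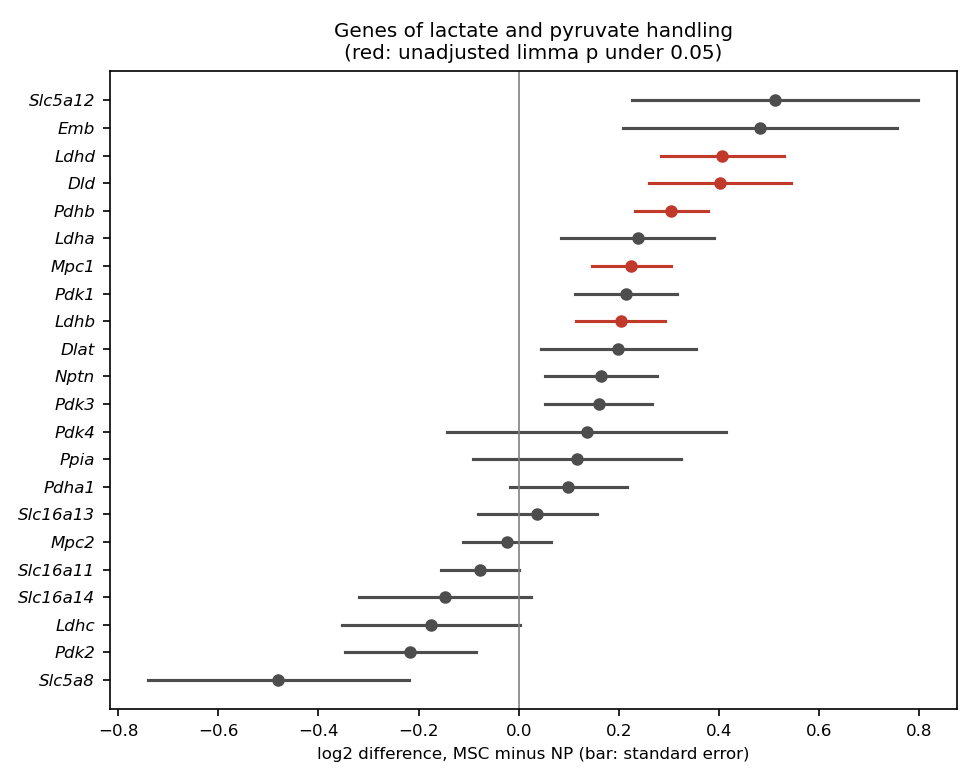
Log2 difference between MSC and NP arrays (x axis) with its standard error for the 22 tested genes of lactate and pyruvate handling, in red where the unadjusted limma p was under 0.05. Of the points 16 lie above 0, and all 5 in red are among them.

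The genes whose values across the 9 arrays were most like those of Slc16a1, among 13761 genes with a value on every array, were an unnamed transcript under probe A_44_P959463, Bin2 and Sumf1, with a Pearson's r of 0.914, 0.914 and 0.901 and a Spearman's rho of 0.867, 0.883 and 0.9. For Bsg they were Tspan12, Ide and the transcript ENSRNOT00000013519, with r of 0.965, 0.956 and 0.945 and rho of 0.95, 0.867 and 0.933. Each was picked as the highest of these many values over arrays that share groups and slides, so these are descriptions only. The log2 difference between MSC and NP was 0.27 for Tspan12 and 0.34 for Ide, and 0.10 for Bin2 and 0.08 for Sumf1.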

How the data were processed

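The authors deposited, per array, the Feature Extraction output with raw pixel intensity of every spot on a linear scale, and a table of log2 values normalized by cyclic loess and filtered. Its log2 scale was checked against the raw files, with a Pearson's r of 0.9999 to 0.99997 per array with the values used here. Following the study's methods, mean intensities without background subtraction were log2 transformed and normalized by cyclic loess over all spots in limma 3.58.1 (R 4.3.3). Spots with an outlier flag (273 to 593 per array) were left out. The filter on dim probes kept those exceeding 1.1 times the negative controls' 95th percentile (both log2) on at least 4 arrays, which is one reading of the methods. Spots of a probe were averaged, and for genes with several probes the one with the largest variance was taken. MSC and NP arrays were set against each other in limma (lmFit and eBayes), with Benjamini-Hochberg FDR over 13769 genes, and single members with two-sided exact permutation tests, whose smallest p is 0.00794.

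Members, gene lists and tests were chosen with earlier results of these data known. All members and their probes are reported. From the lactate list those with an unadjusted p under 0.05 and the 4 others with the largest differences are named, besides the genes most alike to Slc16a1 and Bsg. Other genes named (Mpc2, Slc16a11, Slc16a13 and Slc16a14) were added after their values were seen. A gene first placed in the lactate list is not reported here. On simulated arrays in this design 185 of 200 changed genes among 13769 were called, with 8 false calls, namely 85 of 100 changed 2-fold and 100 of 100 changed 4-fold. The noise was drawn for each gene alone, without slide effects, and no change smaller than 2-fold was set. The share recovered thus does not cover differences of the size seen for the members. The number of arrays limits the precision. Replicate numbers were not taken as pairs. The alternatives were other intensity columns, background correction, normalizations, filters, probe choices, variance models, blocks, the deposited log2 table and each array left out. No per-sample column was left out (0).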

Additional observations from a re-analysis of the deposited data

Results flagged for a closer look

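The difference between MSC and NP for Bsg was not the same on both slides in the measured values, apart by -0.492 on the log2 scale (slide 2 minus slide 1), with an unadjusted limma p of 0.0314 and an FDR of 1 for this interaction. With quantile normalization the unadjusted limma p was 0.0712. NP arrays of slide 1 lay lower (mean 16.22) than those of slide 2 (mean 16.61), while the MSC means were 16.74 and 16.63. A signal was also seen outside the members found by name. LOC687808, which a current table names Slc16a9, had a mean log2 intensity of 8.786 over the 9 arrays, above the 95th percentile of the negative controls of 7.96 to 8.06. Of 16 groups of member values, 0 had a single array apart from the rest by Dixon's ratio.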

How the results depend on the processing

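Of 27 alternative fits 0 called a member, and the log2 differences of Slc16a1 (0.26 to 0.51), Slc16a7 (0.30 to 0.49), Bsg (0.02 to 0.52), Slc16a3 (-0.52 to -0.24) and Slc16a12 (-0.50 to -0.14) had 1 sign throughout. Over all genes, where 0 were called, 2 were called with array weights and 4 on slide 2 alone. The limma FDR lay between 0.155 and 0.86 for Slc16a1, 0.125 and 0.907 for Slc16a7, 0.288 and 0.964 for Bsg and 0.368 and 0.854 for Slc16a3. The sign turned on slide 2 alone for Slc16a10 (-0.121) and Slc16a4 (-0.0145) and on slide 1 alone for Slc16a6 (0.0284), in fits chosen after seeing the data. With arrangements kept within slides, the exact permutation p was 0.0333 for Slc16a1 and 0.0833 for Slc16a7. The slide by treatment interaction of Bsg, -0.49 with an unadjusted limma p of 0.0314, was -0.41 with an unadjusted limma p of 0.0712 under quantile normalization. The cause of these changes was not tested.

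The count of members higher at an unadjusted limma p under 0.05, 2 in the report, was 1 with background-subtracted intensities, 0 with scaling to the 75th percentile, 0 with scaling to the median, 0 on slide 2 alone and 0 to 2 with 1 array left out. The count of lower members, 1 in the report, was 0 with background-subtracted intensities, quantile normalization, either scaling, no filter, array weights and each slide alone, and 0 to 1 with 1 array left out. Of the lactate list, where 5 were higher, 3 were higher with scaling to the 75th percentile, 0 with scaling to the median, 2 on slide 1 alone, 3 on slide 2 alone and 3 to 7 with 1 array left out. Where 0 were lower, 1 was lower with background-subtracted intensities, array weights, the slide block, the replicate block and slide 2 alone, and 0 to 1 with 1 array left out. The share of all genes at an unadjusted limma p under 0.05 in either direction, 11.7% in the report, moved too. It was 9.56% with background-subtracted intensities, 7.84% with scaling to the 75th percentile, 6.07% with scaling to the median, 11.5% with quantile normalization, 8.78% with no filter, 16.5% with array weights, 5.8% on slide 1 alone, 7.86% on slide 2 alone and 8.5% (without MSC replicate 1) to 16.7% (without NP replicate 1, which gave the count of 7) with 1 array left out. Under the other scalings and normalizations the median log2 difference over all genes went no farther from 0 than -0.039, with scaling to the median.

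Same-numbered NP and MSC arrays deviated from their group means with correlations of 0.20, 0.33, -0.35 and 0.05, so the numbers were not taken as pairs. With the replicate block the log2 difference was 0.29 for Slc16a1, 0.40 for Slc16a7, 0.37 for Bsg and -0.39 for Slc16a3, and 0 members were called. Signal over background did not limit the members found by name, while Slc16a9, Slc16a5 and Slc16a8 lay at or under the limit for dim probes.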
